A study of Mus musculus with 4 samples.

Results

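The lipid A response of macrophages lacking Setdb1 was set against the response of control macrophages, gene by gene, as a difference of responses. For each gene this difference is log2(KO lipid A / KO vehicle) minus log2(WT lipid A / WT vehicle), so that a positive value is a stronger rise or a weaker fall in KO and a negative value is a weaker rise or a stronger fall. A gene was represented by the brightest of its probe sets that carry 1 gene symbol, and a signal below the median of its array was raised to that median. The array holds such probe sets for 18193 genes, of which 13567 reached the median of at least 1 array and were examined. The genes described below were chosen mostly by the size of this difference, so their differences are a description, and the difference has no replicate check.

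WT mice were +/+:Setdb1 fl/fl and KO mice were LysM Cre/+:Setdb1 fl/fl, all on C57BL6/J, so that the controls carry the floxed alleles without Cre. LysM Cre is driven from the lysozyme 2 locus, which is active in macrophages, in other myeloid cells and in neutrophils, and it does not act in every cell of a type. Peritoneal macrophages drawn into the cavity by thioglycollate, an irritant, were cultured with vehicle or lipid A for 4 h, and the 4 conditions (WT vehicle, WT lipid A, KO vehicle, KO lipid A) were hybridised to 1 array each. The dose of lipid A is 10 ng/ml in the series description and 10 ug/ml in the sample labels, and the sources used here give no age for the mice. With 1 array per condition no test, error or spread between mice can be given for any difference below, and any value rests on 4 arrays of bulk RNA, in which fewer cells of a type and less RNA per cell cannot be told apart.

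Lipid A, the part of bacterial lipopolysaccharide that immune cells sense, binds Toll-like receptor 4 (TLR4) with its partner MD-2. The receptor signals through MyD88 to NF-κB and AP-1, which drive cytokine and chemokine genes, and through TRIF to interferon-β, whose own signaling then induces antiviral genes. Macrophages also lower many transcripts after this signal, among them genes of their resting state. Setdb1 places methyl groups on lysine 9 of histone H3 (H3K9), a mark of silenced chromatin.

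The Setdb1 signal went from 589 to 521 with lipid A in WT and from 346 to 386 in KO. The lower signals were those of KO under each treatment, and the difference of responses was 0.34 on the log2 scale. The position of the probe set in the gene, inside or outside the deleted exons, is unknown, and a signal outside them would check nothing. Cd68, Lyz2 and Adgre1, which define macrophages, were bright on every array, with at least 45401 for Cd68, 63122 for Lyz2 and 3726 for Adgre1, the last in KO vehicle against 10187 in WT vehicle.

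The median signal, taken as the level of background, was 65.1 with vehicle and 74.8 with lipid A in WT, and 84.2 and 75.8 in KO. It rose with lipid A in WT by 0.20 on the log2 scale and fell by 0.15 in KO, so a gene below every median received a difference of responses of -0.35 from the medians alone. All 4 signals reached the median for 9047 genes, and their median difference of responses was -0.085, against -0.18 over all 13567 examined genes. For the other 4520 genes at least 1 signal was raised, which made the difference a lower bound for 683, an upper bound for 664 and undetermined for 3173. A difference past 3-fold was counted only where no raised signal could have moved it towards the call, and a response was called from 2-fold.

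Lipid A moved more genes at least 2-fold in KO than in WT, both upward and downward, and the excess of falls depended on how the arrays were scaled. Among the 9047 genes with 4 signals at the median or above, lipid A raised 471 at least 2-fold in WT (5.21%) and 551 in KO (6.09%), and it lowered 358 in WT (3.96%) and 944 in KO (10.4%). With each array centred on its median the counts were 350 and 702 raised and 655 and 686 lowered, so the excess of rises in KO grew and that of falls nearly closed. After quantile normalization they were 481 and 626 raised and 294 and 808 lowered, with the excess of falls in KO still present. As deposited, 329 rose and 221 fell in both genotypes, 221 rose in KO alone, 722 fell in KO alone, 141 rose in WT alone and 136 fell in WT alone. Among the 329 genes raised in both, the difference of responses was above 0 for 229 and below 0 for 100, with a median of 0.38, and 46 passed 3-fold upward against 3 downward. Among the 221 genes lowered in both, it was above 0 for 50 and below 0 for 171, with a median of -0.33, and 0 passed 3-fold upward against 10 downward. Genes called on this 2-fold rule share their arrays with the difference itself, so these counts describe where the difference lies and add no further evidence for it.

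Over all examined genes, 124 had a response more than 3-fold higher in KO (0.914%) and 214 a response more than 3-fold lower (1.58%). They fall into 93 genes with a larger induction in KO, 63 with a smaller induction, 116 with a stronger lowering, 15 with a weaker lowering and 10 with responses of opposite sign. Another 13 genes passed 3-fold upward and 28 downward without a 2-fold response in either genotype. The balance of the directions depended on how the arrays were scaled, since 36.7% of the 338 genes were higher as deposited and 79.5% of 331 (263 higher, 68 lower) with each array centred on its median. It was 53.5% after quantile normalization, with 166 higher and 144 lower. Centring moved the median difference of responses of all examined genes from -0.18 to 0.18 and quantile normalization moved it to -0.061, so values near these shifts have no settled sign.

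**Figure D1:**
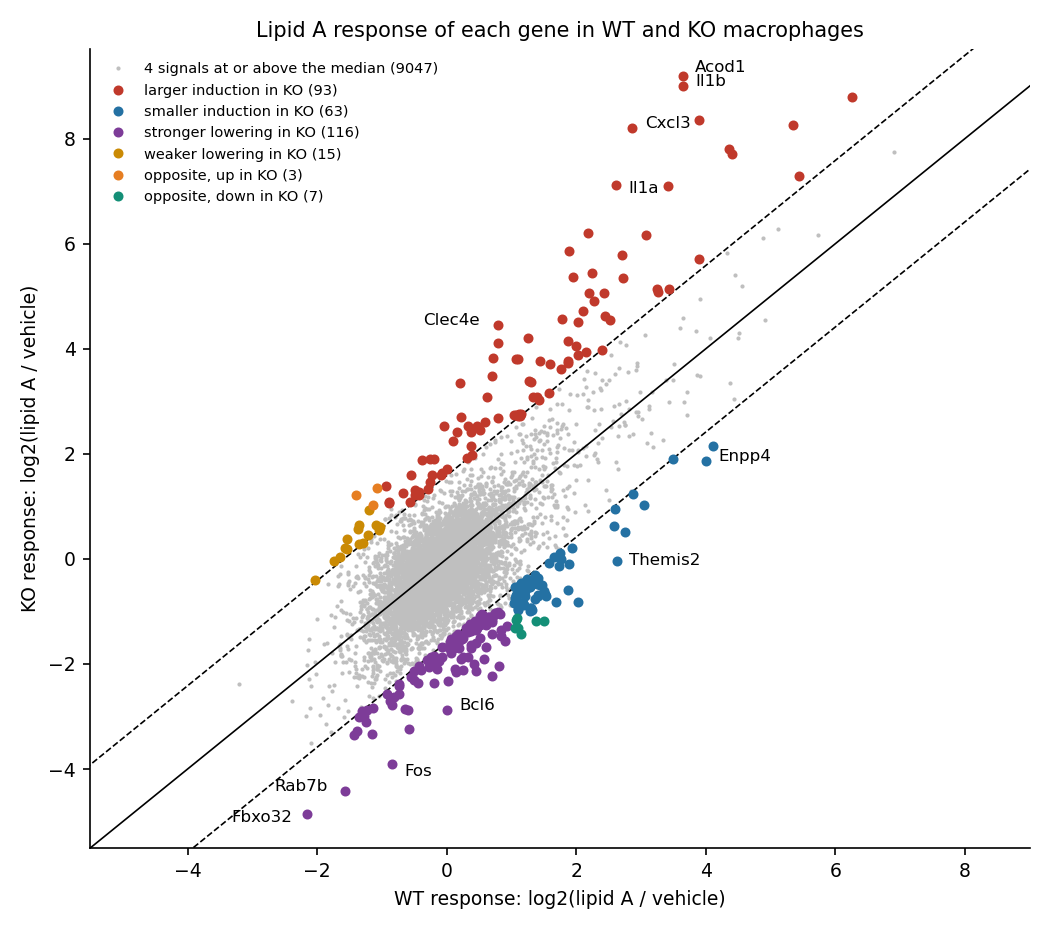
Log2 response to lipid A in WT (x axis) and in KO (y axis), with 1 point per gene, grey for genes with 4 signals at or above the array median and coloured for genes past 3-fold in the difference of responses; the solid line marks equal responses and the dashed lines a 3-fold difference. The 93 genes with a larger induction in KO reach a KO response of 9.19 for Acod1, and the 116 genes with a stronger lowering reach -4.86 for Fbxo32.

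The groups of genes differed in brightness. A mean signal of at least 500 over the 4 arrays was reached by 53 of the 93 genes with a larger induction (57.0%), by 23 of the 116 with a stronger lowering (19.8%) and by 5 of the 63 with a smaller induction (7.94%), against 43.3% of all examined genes. No gene with a weaker lowering or with opposite responses reached it. The median of the mean signal was 784 for a larger induction, 204 for a stronger lowering, 159 for a weaker lowering and 130.5 for a smaller induction, so the last groups lie close to background.

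Probe sets of the same gene gave the only measure of technical error. For 3916 genes with a second probe set measured on all 4 arrays, the difference of responses of a probe set had an SD of 0.46 on the log2 scale, or 1.38-fold, which leaves out the error between arrays and between mice. Of the 25 genes with a larger induction that had a second probe set, 24 had a second value of the same direction and 16 a second value past 3-fold, with a median of 2.26. Of the 21 genes with a stronger lowering, 19 had the same direction and 5 were past 3-fold, with a median of -0.67, and of the 8 genes with a smaller induction, 5 had the same direction and 2 were past 3-fold. The larger inductions were thus the group whose second probe sets most often gave the same call.

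Several cytokine genes had a larger induction in KO. Il1b, which encodes interleukin-1β, went from 81.6 to 1019.6 with lipid A in WT and from 18.1 to 43071 in KO. Its signal was near or below background without lipid A in both genotypes, and its response was 12.5-fold in WT and at least 512-fold in KO, a difference of at least 5.36 on the log2 scale. Il1a, the other interleukin-1 agonist, went from 426 to 2605 in WT and from 224 to 31148 in KO in the same order. The vehicle signals lay within 1.90-fold of each other and the responses were 6.12-fold in WT and 139-fold in KO, a difference of 4.51.

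Other cytokines followed in the same direction. Inhba, the subunit of activin A, went from 393 to 1514 with lipid A in WT and from 172 to 7082 in KO, so that it rose 3.86-fold in WT and 41.2-fold in KO. Tnf, the tumor necrosis factor gene, was bright in both genotypes under lipid A, with 22302 in WT and 49032 in KO, and rose 43.2-fold and 155-fold. Tnf, Osm (oncostatin M, difference 1.69) and Lif (leukemia inhibitory factor, at least 2.26) complete the 6 of 25 examined cytokine genes called higher in KO, and are named here with their values known. Over all examined genes 0.914% were called higher. Of the 25, none had a difference counted as lower, their median difference was 1.49 against -0.18 over all examined genes, and 20 lay above 0. The median was positive under every alternative run, between 0.88 and 1.85.

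**Figure D2:**
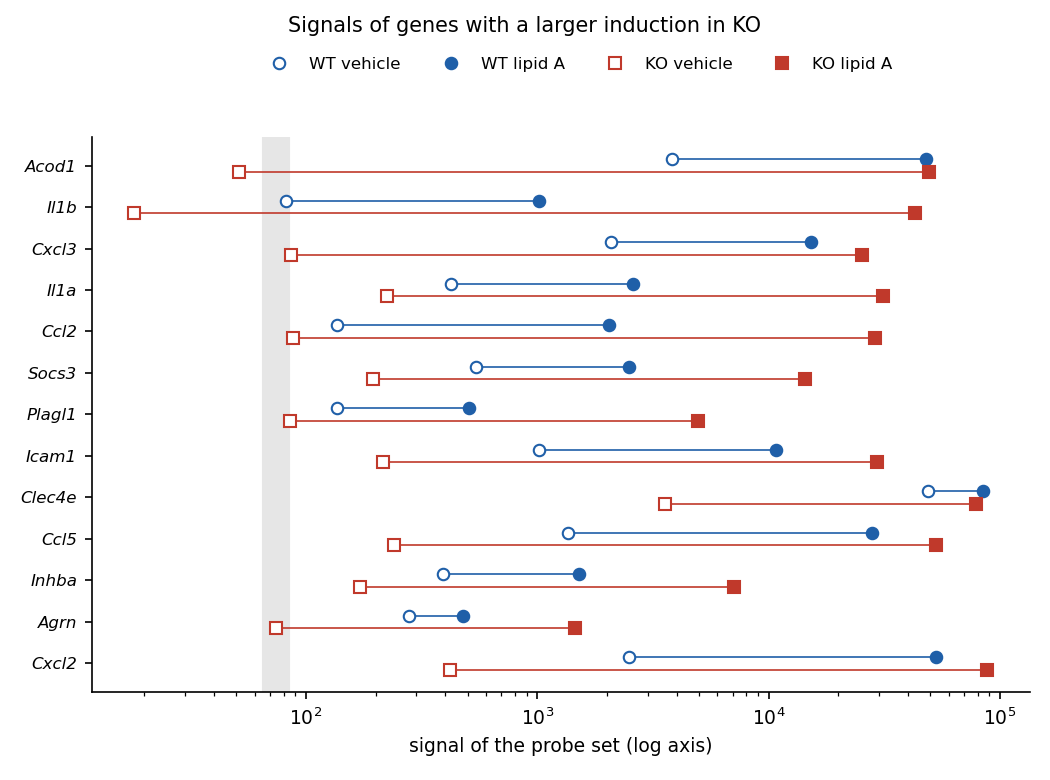
Signals of 13 genes with a larger induction in KO, those of the largest differences, on a log axis, with circles for WT, squares for KO, open symbols for vehicle and filled symbols for lipid A, 1 array each; the grey band spans the 4 array medians, from 65.1 to 84.2. Il1b, Il1a and Ccl2 separate at the filled symbols, whereas Acod1, Clec4e and Cxcl3 separate mainly at the open ones.

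For several cytokines the size of the difference could not be given because a vehicle signal lay at background. Il6, the interleukin-6 gene, went from 2.18 to 4203 with lipid A in WT and from 108 to 28480.4 in KO. Its WT response was at least 64.5-fold and its KO response 263-fold, which leaves a difference of at most 2.03, and with no floor the sign turned to -2.87. Il12b, whose product is shared by the cytokines interleukin-12 and interleukin-23, rose at least 13-fold in WT and at least 78.4-fold in KO from background in both vehicle arrays. Csf2, the GM-CSF gene, gave 4.02, 3.78 and 3.14 on the other arrays and 1933 in KO lipid A, so it was above background in that condition alone. Edn1, the endothelin-1 gene, gave 202 in WT and 3236 in KO under lipid A, and the chemokine gene Ccl7 gave 295 and 2328, again with both vehicle signals at background. Cish, an inhibitor of cytokine receptor signaling, had a difference of at most 2.70, since WT vehicle lay just under its median. Tnfsf10, the TRAIL gene, had the lowest value of all genes, -3.13, but from background in KO on both arrays (25.9 and 55.8), and it is named after its value was seen.

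Several chemokine genes also had a larger induction in KO, and they differed in where the genotypes parted. Ccl2, which attracts monocytes, went from 137 to 2036 with lipid A in WT and from 88.3 to 28749 in KO. It differed 14.1-fold between the genotypes under lipid A and 1.55-fold under vehicle, and the difference of its responses was 4.45. Cxcl3, which attracts neutrophils, went from 2090.1 to 15209 in WT and from 86.5 to 25413. in KO Its signals under lipid A were within 1.67-fold, whereas WT vehicle was 24.2-fold above KO vehicle, and from there came most of its difference of 5.34.

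Its neighbors Cxcl2 and Cxcl1 lay between these patterns. Cxcl2 went from 2501 to 52796 with lipid A in WT and from 420.5 to 87996 in KO, with KO 5.95-fold below WT under vehicle and 1.67-fold above it under lipid A. Cxcl1 went from 222 to 8970.3 in WT and from 137 to 41538 in KO, with KO 1.62-fold below WT under vehicle and 4.63-fold above it under lipid A, and its second probe set gave a difference of 3.17 beside 2.91. The 3 genes were those called among 5 examined neutrophil-attracting CXC chemokines, whose median difference was 2.91. Among 12 examined CC chemokines 4 were called higher and 0 lower, with a median of 1.71, namely Ccl2, Ccl5 and, named after their values were seen, Ccl3 and Ccl9. Over all examined genes 0.914% were called higher and 1.58% lower, and the median was -0.18. Ccl5, the RANTES gene, rose 20.6-fold in WT and 222-fold in KO, and Ccl9 changed from 4504 to 6909 in WT and from 5044 to 42799 in KO. Among the 6 examined interferon-induced and other CXC chemokines the median was -0.050, with Cxcl16 alone called. The interferon-induced Cxcl10 rose at least 291-fold in WT and at least 146-fold in KO from background.

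The 3 neutrophil chemokine genes lie near each other on chromosome 5, and their promoters hold the same kind of NF-κB site, which is why they are shown. The 150 bases before the RefSeq start of each gene (GRCm38.p6, + strand) are printed 5′ to 3′, with matches to a κB-like motif on either strand in capitals. Cxcl1 lies at chr5:90891095-90891244, Cxcl2 at chr5:90903749-90903898 and Cxcl3 at chr5:90785951-90786100. Il6, whose promoter sits elsewhere on the same chromosome at chr5:30012964-30013113 (+ strand), is added because it holds the same motif.
Cxcl1: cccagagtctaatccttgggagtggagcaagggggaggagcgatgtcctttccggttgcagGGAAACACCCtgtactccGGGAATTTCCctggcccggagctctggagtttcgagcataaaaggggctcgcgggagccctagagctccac
Cxcl2: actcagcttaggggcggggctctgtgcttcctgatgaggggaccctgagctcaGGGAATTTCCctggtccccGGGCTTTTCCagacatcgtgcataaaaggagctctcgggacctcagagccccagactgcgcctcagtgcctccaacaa
Cxcl3: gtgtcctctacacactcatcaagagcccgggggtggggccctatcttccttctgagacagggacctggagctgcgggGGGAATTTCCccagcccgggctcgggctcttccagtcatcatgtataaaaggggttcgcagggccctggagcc
Il6: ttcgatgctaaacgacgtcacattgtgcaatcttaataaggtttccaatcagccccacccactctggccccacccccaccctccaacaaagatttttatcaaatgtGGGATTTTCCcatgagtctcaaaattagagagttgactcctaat
Cxcl1 and Cxcl2 hold 2 matches each and Cxcl3 and Il6 1 match each, the first of them 89, 97, 73 and 44 bases before the start. The same motif was thus present in a gene that differed under vehicle (Cxcl3) and in one that differed under lipid A (Cxcl1).

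That split held for the 93 larger inductions as a whole. By a 2-fold limit on each treatment, 43 were higher in KO under lipid A without being lower under vehicle, 34 were lower in KO under vehicle without being higher under lipid A, 11 were both and 5 were neither. The median difference between KO and WT was -0.98 under vehicle and 1.17 under lipid A on the log2 scale. In 38 of the 93 the WT response stayed under 2-fold.

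The genes that parted under vehicle were already high in the WT vehicle array. Acod1, which makes the antibacterial metabolite itaconate, went from 3839 to 48029.5 with lipid A in WT and from 51.4 to 49219.7 in KO. The lipid A signals were alike, and the response was 12.5-fold in WT and at least 585-fold in KO, which made this the largest secured difference, at least 5.55. Clec4e, the receptor Mincle, went from 48726 to 84688 in WT and from 3573 to 78521 in KO, so that it rose 1.74-fold in WT and 22.0-fold in KO to a like level. Its second probe set gave a difference of 4.52 beside 3.66, and whether signals this bright were still in proportion to the RNA was not tested.

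Further genes of this kind were receptors, adhesion molecules and proteases. Tlr2, the receptor for bacterial lipoproteins, gave 3809 in WT and 833 in KO under vehicle, against 20659 and 20412 under lipid A. Mmp14, a membrane-bound matrix protease, gave 5026 in WT and 414 in KO under vehicle, and under lipid A it was 1.86-fold lower in KO (10767 and 5802). Fpr2, a receptor for formylated peptides, was at least 16.0-fold lower in KO vehicle and 2.63-fold lower in KO lipid A. For Mmp14 and Fpr2 the larger induction in KO therefore ended at a lower signal than in WT. Gbp2, an interferon-induced GTPase, went from 4816 to 22755 with lipid A in WT and from 561 to 24431 in KO, and Icam1, the adhesion molecule bound by leukocyte integrins, went from 1013 to 10799 in WT and from 216 to 29366. in KO Icam1 differed both ways, with KO 4.69-fold lower under vehicle and 2.72-fold higher under lipid A. Met, the receptor of hepatocyte growth factor, and Acp5, an acid phosphatase of osteoclasts and macrophages, are named after their values were seen and had differences of 2.95 and 3.15 with WT vehicle 13.6-fold and 6.90-fold above KO vehicle. With 1 WT vehicle array, a state of that culture and an effect of the genotype cannot be told apart in these genes.

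**Figure D3:**
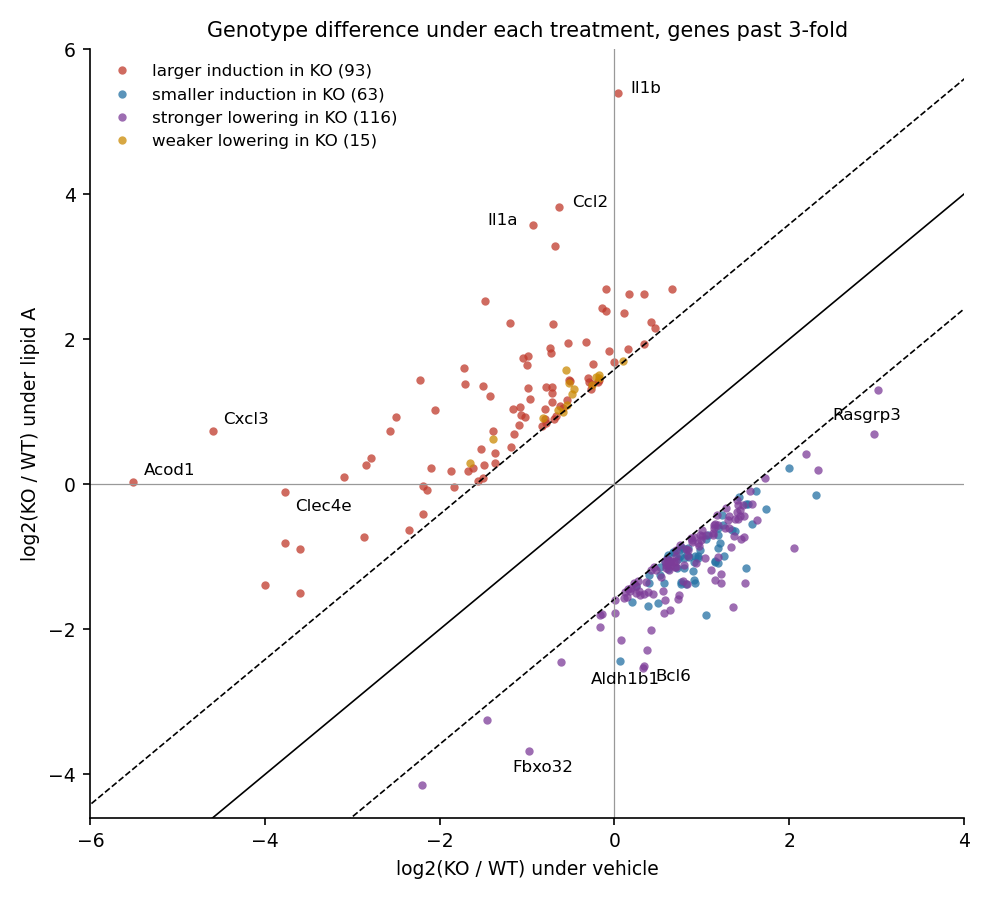
Log2 ratio of KO over WT under vehicle (x axis) and under lipid A (y axis) for the genes past 3-fold in the difference of responses, with 1 point per gene, coloured by the kind of response; the solid line marks the same ratio under both treatments and the dashed lines a 3-fold difference of responses. The larger inductions spread from genes lower in KO under vehicle (Acod1, Cxcl3, Clec4e) to genes higher in KO under lipid A (Il1b, Ccl2, Il1a).

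Some genes of NF-κB signaling and its feedback also rose more in KO. Of 18 examined NF-κB subunits and feedback inhibitors, 6 were called higher and 0 lower, against 0.914% higher over all examined genes, and 17 lay above 0, with a median of 0.96 against -0.18 over all. Nfkbiz, a nuclear IκB protein needed for secondary response genes, went from 877 to 7419 with lipid A in WT and from 211 to 15134 in KO, and rose 8.46-fold and 71.8-fold. Its second probe set gave a difference of 0.43 beside 3.09, so the size is not settled. Zc3h12a, the RNase regnase-1 that degrades cytokine mRNAs, rose 2.09-fold and 14.1-fold, and Nfkb2, the p100 subunit, 4.56-fold and at least 33.2-fold. A second probe set of Nfkb2 gave 0.93 beside 2.86, and by the median over probe sets the difference of Zc3h12a was 1.24 and no longer passed 3-fold. The other members called were Zc3h12c, Traf1 and Bcl3, named after their values were seen. In 17 of the 18 genes lipid A gave at least a 2-fold rise in WT and in 17 of the 18 in KO, so the list differed in size of response rather than in the number of genes that responded.

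Of 14 SOCS and STAT genes, which carry and limit cytokine receptor signals, 3 were called higher and 0 lower, against 0.914% higher over all examined genes, with a median of 0.97. Socs3, the inhibitor of interleukin-6 type receptors, went from 545 to 2484 with lipid A in WT and from 195 to 14394 in KO, and its second probe set gave 2.54 beside 4.02. Il4ra, the interleukin-4 receptor chain, changed from 371 to 397 in WT and from 189.8 to 900.1 in KO, but by the median over probe sets its difference was 0.32 beside 2.15. Stat5a, named after its values were seen, had equal vehicle signals (458 and 459) and rose to 1206 in WT and 3867 in KO.

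Of 8 genes of arginine, nitric oxide and itaconate metabolism, 4 were called higher and 0 lower, against 0.914% higher over all examined genes, with a median of 1.59. Besides Acod1 these were the arginine transporter Slc7a2, which rose 9.63-fold in WT and 34.0-fold in KO, the cystine transporter Slc7a11 (2.47-fold and 10.3-fold) and, named after its values were seen, the superoxide dismutase Sod2. Slc7a2 parted under lipid A and Slc7a11 under vehicle. Against 0.914% and 1.58% over all examined genes, 3 of 15 matrix metalloproteinases and their inhibitors were called higher and 1 lower. They were Mmp14, the tissue inhibitor Timp1, which went from 166 to 269 in WT and from 156 to 1741 in KO, and Serpinb2, the inhibitor of urokinase, which went from 1256 to 8164 in WT and from 384 to 21259.8 in KO, while Plau, urokinase itself, had a difference of -1.72 (named after its values were seen). Timp1 rose 1.62-fold in WT and 11.2-fold in KO from equal vehicle signals.

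Genes from further lists rose more in KO as single members, against 0.914% called higher and 1.58% called lower over all examined genes. Ptgs2, which encodes cyclooxygenase-2, went from 178 to 13641 in WT and from 107 to 47719.9 in KO and was the 1 gene called among 15 of prostaglandin and leukotriene synthesis, whose median was -0.37. Cd80, a ligand that costimulates T cells, went from 141 to 182 in WT and from 221 to 1176 in KO and was the 1 called among 12 costimulatory and checkpoint molecules, with a median of 0.64. By the median over the probe sets of a gene, the difference of Cd80 fell to 0.90. Spry1, an inhibitor of growth factor signaling, was flat in WT (93.7 and 91.0) and rose from 85.1 to 491 in KO, and Ier3, an early stress gene, rose 3.44-fold in WT and 23.8-fold in KO. Olr1, a receptor for oxidized lipoprotein, rose 6.59-fold and 40.5-fold, and Plagl1, a zinc finger transcription factor, 3.72-fold and 58.0-fold. Agrn, the proteoglycan agrin, rose 1.73-fold and at least 17.3-fold. Mki67, a proliferation marker, rose from near or below background in both genotypes, to 815 in WT and 2959.8 in KO, whereas Ccna2, cyclin A2, lay among the smaller inductions. In the list of 20 S phase and mitosis genes these were the only genes called, in opposite directions, with a median of -0.20.

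The interferon-stimulated genes had a difference of responses near 0 as a group. Lipid A raised 28 of 29 antiviral genes at least 2-fold in WT and 29 of 29 in KO, with median responses of 3.07 and 3.67. Of these 29 genes 2 were called higher and 1 lower, against 0.914% and 1.58% over all examined genes. Their difference had a median of 0.14. The median was -0.040 with a floor at 200 and 0.49 with each array centred. The genes called higher, Rtp4 and Zbp1, had WT vehicle signals 3.58-fold and 4.57-fold above KO vehicle, and a second probe set of Zbp1 gave -0.22 beside 1.78. By the median over probe sets the difference of Rtp4 was 0.81 beside 1.81, and neither gene passed 3-fold. Mx2, an antiviral GTPase, rose at least 17.2-fold in WT, from 11.6 to 1121, and 4.46-fold in KO, from 113 to 503. Among 10 interferon-inducible GTPases Gbp2 was the 1 gene called, with a median of 0.063, while Gbp6 rose 21.6-fold in WT and 8.19-fold in KO and did not pass 3-fold.

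The 63 genes with a smaller induction in KO were mostly dim. Their median response was 1.36 in WT and -0.52 in KO on the log2 scale, so many of them did not rise in KO. Themis2, a signaling scaffold of myeloid and B cells, went from 231 to 1424 with lipid A in WT and from 655 to 638 in KO. It rose 6.17-fold in WT and was level in KO, at a signal between those of WT. Aldh1b1, a mitochondrial aldehyde dehydrogenase, went from 294 to 945 in WT and from 308 to 174 in KO, so that the genotypes were equal under vehicle and parted under lipid A. Il15ra, which presents interleukin-15, went from 88.1 to 593 in WT and from 166 to 238 in KO, and Enpp4, a phosphodiesterase of the cell surface, rose 16.0-fold in WT and 3.64-fold in KO. Klf4, a transcription factor, was the brightest of those named here, with 1788, 4084, 2328 and 1274, and its second probe set gave -1.81 beside -2.06. Klf2, its relative, named after its values were seen, went from 231 to 641 in WT and from 586 to 414 in KO.

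The promoter of Klf4 differs in kind from that of Il1a, and the sequences are shown for that contrast. The 150 bases before the RefSeq start are given with CG dinucleotides in capitals, for Il1a at chr2:129309973-129310122 and for Klf4 at chr4:55532476-55532625 (GRCm38.p6, - strand in both cases, printed 5′ to 3′ of that strand).
Il1a: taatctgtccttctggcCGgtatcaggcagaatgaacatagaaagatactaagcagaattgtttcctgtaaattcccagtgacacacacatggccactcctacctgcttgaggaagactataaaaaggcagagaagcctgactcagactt
Klf4: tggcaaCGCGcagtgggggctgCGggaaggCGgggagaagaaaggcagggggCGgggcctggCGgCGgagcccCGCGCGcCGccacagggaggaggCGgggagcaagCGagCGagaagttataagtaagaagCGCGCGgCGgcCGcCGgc
The Il1a stretch holds 1 CG and the Klf4 stretch 20. Over 300 bases, 250 before the start to 50 after it, the median number of CG was 11 for 79 larger inductions, 15 for 51 smaller inductions, 19.5 for 96 stronger lowerings and 20 for 10875 examined genes with a promoter in the table. It was 15 for 224 genes raised at least 2-fold in both genotypes with a difference within 3-fold. Over the same 300 bases Il1a held 5 and Klf4 40, so Klf4 lay far above the median of its own group.

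Some smaller inductions came from KO vehicle signals that were already higher. By the 2-fold limits, 26 of the 63 were lower in KO under lipid A alone, 19 were higher in KO under vehicle alone, 5 were both and 13 were neither. Eng, a coreceptor for TGF-β, was 3.33-fold higher in KO vehicle (138 and 460.5), and Thbs1, thrombospondin-1, 3.99-fold (125 and 496), so both had a higher start in KO. Tlr3, the receptor for double-stranded RNA, rose 6.07-fold in WT and 1.94-fold in KO. The differences of Thbs1 (-1.77) and Tlr3 (-1.65) no longer passed 3-fold with each array centred, after quantile normalization, with a floor at 200 or by the median over probe sets. The signals of Ttc21b, Psd3 and Plxna2 lay below 300 on every array and those of Abhd15, Padi2 and Sirt4 include raised ones. A second probe set of Plxna2 gave 0.12 beside -2.11.

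The 116 genes with a stronger lowering in KO formed the most numerous group as deposited, and numbered 37 with each array centred. Fos, a subunit of AP-1, went from 1416 to 786 with lipid A in WT and from 3639.6 to 243 in KO. It fell 1.80-fold in WT and 15-fold in KO, with a higher start and a lower end in KO. Bcl6, a transcriptional repressor that restrains inflammatory genes, went from 1186 to 1185 in WT and from 1493 to 204. in KO It was level in WT and fell 7.33-fold in KO, and the genotypes differed 1.26-fold under vehicle. Rab7b, a GTPase of the late endosome, went from 12622 to 4249 in WT and from 15936 to 747 in KO, with a fall of 2.97-fold in WT and 21.3-fold in KO, and its second probe set gave -2.87 beside -2.85.

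Fbxo32, a subunit of a ubiquitin ligase, fell the furthest in KO. It went from 5836 to 1302 in WT and from 2956 to 102 in KO, or 4.48-fold down in WT and 29.0-fold down in KO, but its second probe set gave a difference of -0.37 beside -2.69. Rgs2, which limits signaling of G proteins, went from 1815 to 818 in WT and from 4129 to 409 in KO, and its second probe set gave -1.44 beside -2.18. Bcl2, the survival gene, went from 449 to 296 in WT and from 750.0 to 103 in KO. It was the 1 gene called among 14 of the Bcl2 family and apoptosis, against 1.58% called lower over all examined genes. Gpsm2, which orients the mitotic spindle, and Etv5, a transcription factor, rose under 2-fold in WT and fell 2.77-fold and 4.70-fold in KO. By the median over probe sets the difference of Etv5 was -1.18 beside -2.93. Rasgrp3, an activator of Ras, was flat in WT (112 and 123) and fell from 878 to 198 in KO, so that it differed under vehicle rather than under lipid A. Vamp5, Fbxo36, Cdca7l and E230032D23Rik had KO lipid A signals between 45.2 and 83.6, at background or close to it.

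**Figure D4:**
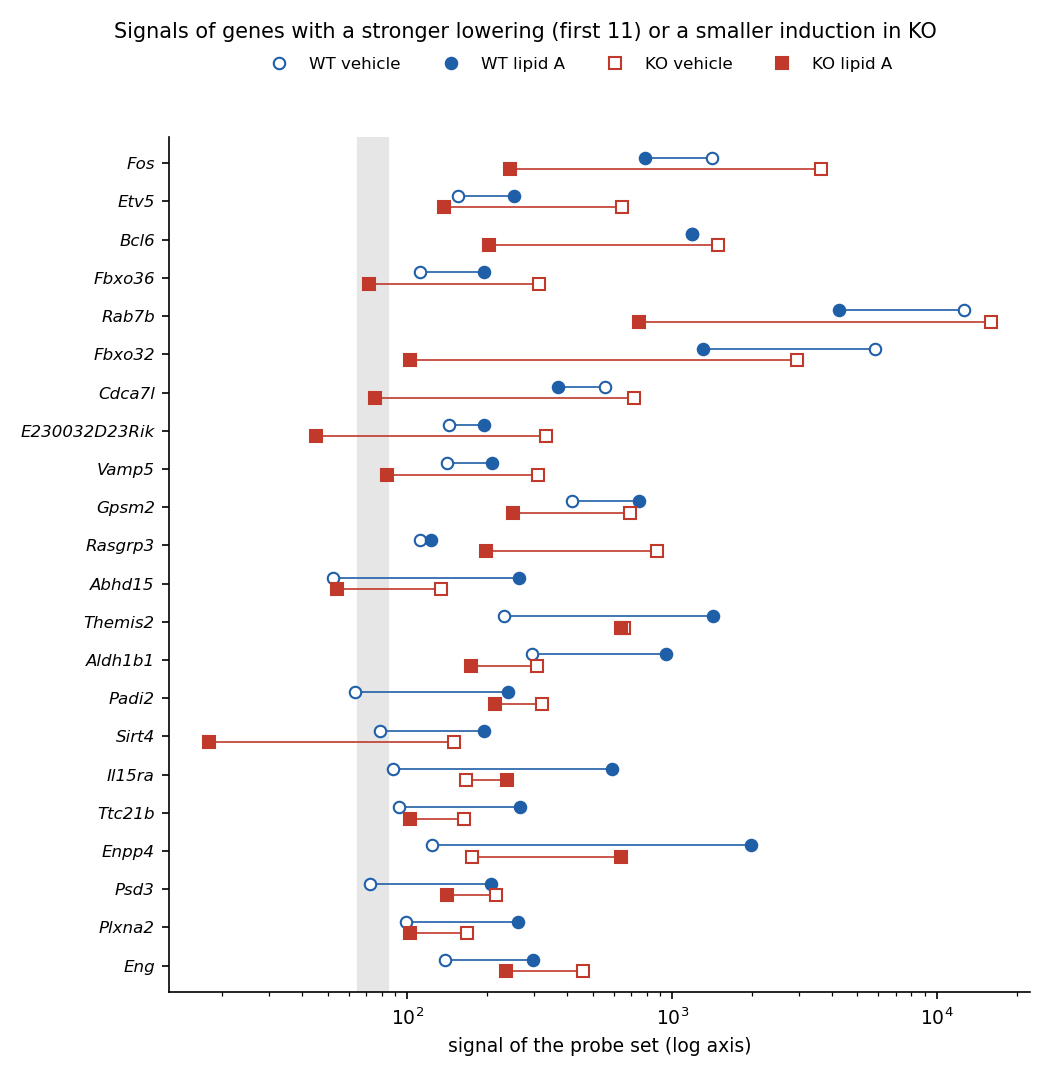
Signals of 11 genes with a stronger lowering in KO (Fos to Rasgrp3) and 11 with a smaller induction in KO (Abhd15 to Eng), on a log axis, with circles for WT, squares for KO, open symbols for vehicle and filled symbols for lipid A, 1 array each; the grey band spans the 4 array medians, from 65.1 to 84.2. Fos, Bcl6, Rab7b and Fbxo32 end at a KO lipid A signal below the 3 others, and many of the genes with a smaller induction stay close to the band.

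In most of this group the WT macrophages showed little response. The WT response stayed under 2-fold in 105 of the 116 genes, with a median of 0.24 on the log2 scale against -1.69 in KO. By the 2-fold limits, 57 were lower in KO under lipid A alone, 37 were higher in KO under vehicle alone, 7 were both and 15 were neither.

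A list named for genes lowered by TLR4 ligands in macrophages moved in this direction. It was chosen with earlier results of these data known, so its counts are a description and no separate support. Of 34 examined members, 8 were called lower and 0 higher, 30 lay below 0 and the median was -0.44, against -0.18 over all examined genes, where 1.58% were called lower. The median was below 0 under every alternative run, with -0.087 when each array was centred, below the 0.18 of all examined genes in that setting. Of these members 10 fell at least 2-fold in WT and 17 in KO. Those called were Fos, Bcl6, Rgs2, Klf2, Cebpa, which keeps the myeloid program, Arrb1, an arrestin, and, named after their values were seen, the nucleotide receptor P2ry6 and the homeobox gene Hhex. Of these, Klf2 rose with lipid A in WT and was counted above as a smaller induction, not as a stronger lowering. Cebpa went from 2744 to 1175 with lipid A in WT and from 3260.1 to 446 in KO, and Arrb1 went from 1238 to 743 in WT and from 1337 to 250.1. in KO Neither passed 3-fold with each array centred, where their differences were -1.30 and -1.33. The members Pparg and Cxcr4 fell in both genotypes, 2.88-fold and 3.87-fold in WT and 7.48-fold and 7.84-fold in KO, and did not pass 3-fold in the difference.

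Genes of signaling and metabolism were lowered more in KO as single members. Of 15 phosphodiesterases and regulators of G protein signaling, 2 were called lower and 0 higher, against 1.58% lower over all examined genes, and 13 lay below 0. The 2 were Rgs2 and Arrb1, both already counted in the list before, and neither is a phosphodiesterase. Their median was -0.38 against -0.18 over all, and -0.025 against 0.18 with each array centred. Dusp6, a phosphatase of ERK, rose 1.52-fold in WT and fell 2.41-fold in KO, and Pfkfb3, which drives glycolysis, rose 1.30-fold and fell 2.57-fold. Both missed 3-fold with each array centred. Among 12 MAP kinase phosphatases and Sprouty genes, 2 were called higher (Spry1 and Dusp5) and 1 lower, with a median of -0.22, and among 23 immediate early transcription factors 3 were called higher and 3 lower (Fos, Klf4 and Klf2), with a median of 0.25. The immediate early genes thus split, with Ier3, Maff and Batf higher, against 0.914% called higher over all examined genes. Batf is named after its value was seen, and Dusp5 fell from 174 to background in WT.

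The 15 genes with a weaker lowering in KO were dim, and their number rose to 59 with each array centred, above the 37 stronger lowerings of that setting. As deposited, the 15 had a median response of -1.36 in WT and 0.38 in KO, so many of them were not lowered in KO. Prim2, a DNA primase subunit, went from 537 to 208 with lipid A in WT and from 171 to 254 in KO, and a second probe set gave 0.12 beside 1.94. Exog, a mitochondrial nuclease, went from 268 to 92.1 in WT and from 187 to 243 in KO, and Klf16, a transcription factor, 458, 223, 404 and 617. The remaining named members, Slc18a1, Zfp950, Tmem201, Neo1, Dnal1 and Kbtbd3, had differences between 1.59 and 2.13. All 3 members with a second probe set had a second value of the same direction and none past 3-fold.

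In the list of Toll-like receptor pathway genes Tlr2 and Tlr3 were called, and in the lists of chromatin genes none was. Of the 22 genes of the pathway 1 was called higher (Tlr2) and 1 lower (Tlr3), against 0.914% and 1.58% over all examined genes. The median of the 22 was -0.07, and Tlr4 had a difference of -0.07. Among 19 H3K9 methyltransferases and Setdb1 partners none was called, with a median of -0.25, and among 18 histone lysine demethylases none, with a median of -0.09. Setdb2, a relative of Setdb1, rose 3.94-fold in WT and 1.85-fold in KO, and Dnmt3a, a DNA methyltransferase, fell 2.11-fold and 4.27-fold, with -1.82 from a second probe set beside -1.01. Kdm6b, which removes methyl groups from lysine 27 of histone H3 and is induced by lipopolysaccharide, rose 4.43-fold in WT and 9.60-fold in KO, with 1.25 from a second probe set beside 1.12. By the brightest probe set these differences lay under 3-fold, while the second probe set of Dnmt3a lay past it.

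No gene was called in several lists, namely the inflammasome and pyroptosis genes (12 examined), Nrf2 targets and metallothioneins (12), MHC class II presentation (10), MHC class I processing (12), complement components (10), cyclins and cyclin-dependent kinase inhibitors (18), the citric acid cycle and respiratory chain (21) and lysosome and autophagy (23). The share over all examined genes was 0.914% called higher and 1.58% called lower. The medians of these lists lay between -0.35 and 0.15. The lowest was that of the lysosome and autophagy genes, in which 18 of 23 lay below 0. It was -0.0028 with each array centred. Tfeb, the transcription factor that drives lysosomal genes, fell 1.52-fold in WT and 3.97-fold in KO. Of the metallothioneins, which bind zinc, Mt2 rose 1.99-fold in WT and 4.03-fold in KO.

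Each of the lists that remain held at most 2 called genes, against 0.914% called higher and 1.58% called lower over all examined genes. Chemoattractant receptors had Fpr2 called higher among 11 examined and a median of 0.42, which was -0.41 over the members with 4 signals at the median. Scavenger and C-type lectin receptors had Clec4e and Olr1 higher among 15, with a median of 0.11, and alternative activation genes had Il4ra higher among 13, with 0.16. Cholesterol synthesis and LXR target genes had Ch25h, which makes 25-hydroxycholesterol, higher among 19, with a median of 0.00 after rounding, and resident large peritoneal macrophage genes had Serpinb2 higher among 13, with -0.20. By the median, the resident genes were higher in KO under each treatment, with KO minus WT of 1.83 under vehicle and 1.63 under lipid A. Their summed signals differed less, with 53550 in WT and 62688 in KO under vehicle and 57680 and 74115 under lipid A. The part of this in the differences of other genes was not tested. Macrophage identity genes had Cebpa lower among 17, with -0.29, glycolysis and hypoxia response genes Pfkfb3 lower among 21, with -0.22, and growth factors and vasoactive peptides Thbs1 lower among 17, with 0.01.

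**Figure D5:**
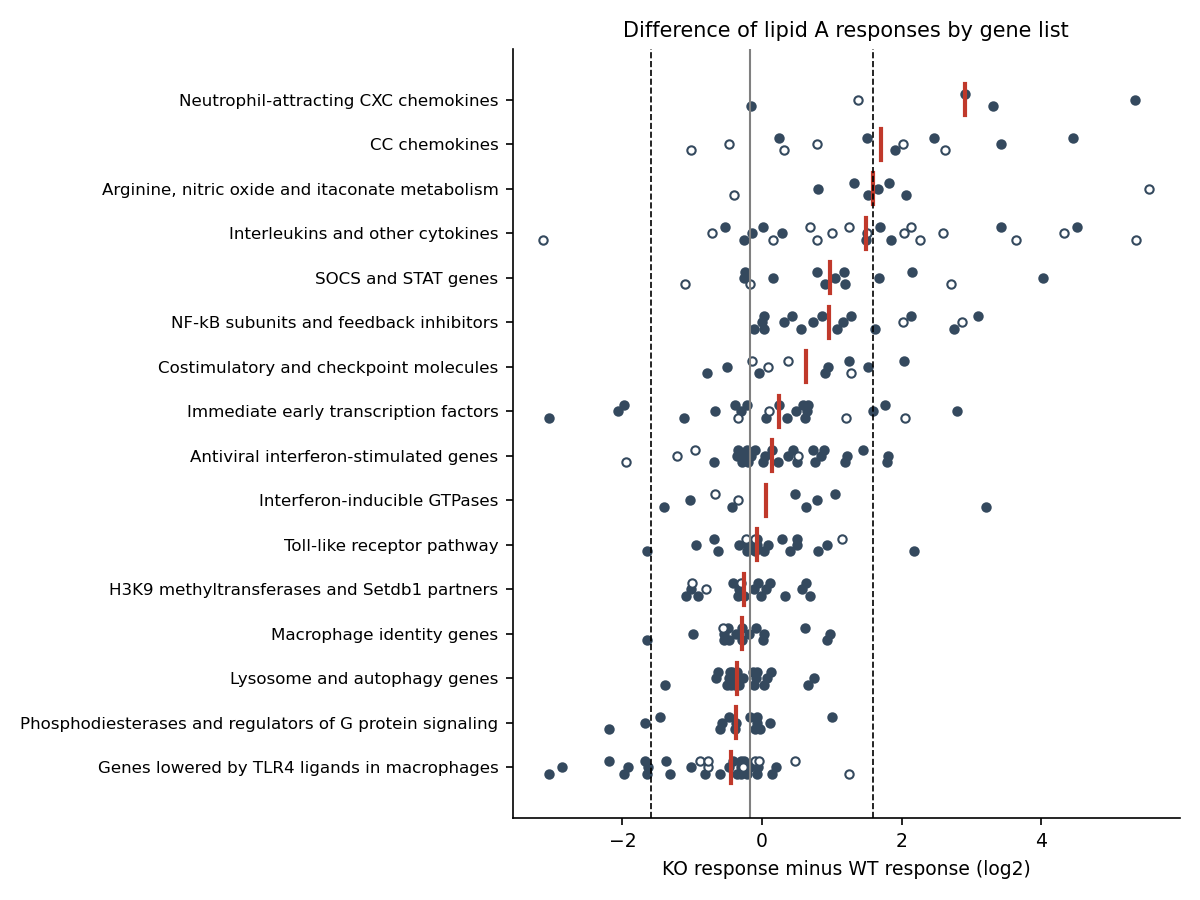
KO response minus WT response on the log2 scale for the examined members of 16 gene lists, with 1 point per gene, filled where all 4 signals reached the array median and open otherwise; red bars mark list medians, the grey line the median of all examined genes (-0.18) and dashed lines 3-fold. The medians run from 2.91 for the neutrophil-attracting CXC chemokines to -0.44 for the genes lowered by TLR4 ligands.

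Some markers of other cell types differed between the genotypes under each treatment, and 1 of the marker genes examined was called in the difference of responses. The share over all examined genes was 0.914% called higher and 1.58% called lower. The summed signal of 13 B cell markers went from 3011 to 2743 with lipid A in WT and from 9656 to 9253 in KO. It was higher in KO under each treatment, 0 of the 13 genes were called and their median difference was -0.20. The summed signal of 12 neutrophil markers went from 7265 to 6197 in WT and from 2659 to 3134 in KO, lower in KO under each treatment. By the median of the 10 examined, KO minus WT was 0.21 under vehicle and -0.016 under lipid A on the log2 scale. The lower sum thus did not hold for the typical marker. Of the 10, 4 had all 4 signals at the median and 0 were called, and the median difference of responses was -0.09. Among T and NK cell markers (11 examined), mesothelium and fibroblast markers (11) and macrophage markers (7) none was called either, and 1 of 6 dendritic cell markers was, Zbtb46, at -1.80 or lower. The median of the T and NK cell markers was -0.51, with 10 of 11 below 0, and 1 of the 11 had 4 signals at the median. Marker lists of eosinophils and mast cells, erythroid cells, platelets and endothelium held 3 to 6 examined genes with none called, and their medians were -0.24, -0.56, 0.17 and -0.76. With each array centred, the medians were -0.16 for T and NK cells and -0.41 for endothelium. Their part in the differences of other genes was not tested.

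The promoters of the larger inductions differed in letter content from those of all examined genes, as a description. The κB-like motif, whose matches are the capitals in the chemokine promoters above, was found on either strand in 8.86% of 79 promoters of larger inductions, 3.92% of 51 of smaller inductions, 1.04% of 96 of stronger lowerings and 1.62% of 10875 examined genes. The genes with it were Cxcl1, Cxcl2, Cxcl3, Ccl9, Il4ra, Nfkb2 and Sema6c, the last named after its promoter was seen. The AP-1 motif TGANTCA was found in 15.2%, 1.96%, 5.21% and 5.53% of the same sets, and TATAAA in 21.5%, 3.92%, 8.33% and 8.01%. Genes raised at least 2-fold in both genotypes with a difference within 3-fold make the closer comparison, and among their 224 promoters the shares were 4.02% for the κB-like motif, 9.38% for TGANTCA and 14.3% for TATAAA. The interferon response motif was found in 14.7% of these 224, in 0 of the 47 larger inductions with a KO lipid A signal at least 2-fold above WT, and in 12.5% of the 32 without. The cyclic AMP response motif TGACGTCA was found in 1.27% of the larger inductions, 0% of the smaller, 5.21% of the stronger lowerings and 3.09% of examined genes. A match says that the letters are present and not that a factor binds there.

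The 3-fold limit cuts a continuous range. Among genes with 4 signals at the median, Maff (1.59) and Cybb (1.59), a subunit of the NADPH oxidase, lay just inside it upward and Ikbke (1.58) and Lztfl1 (1.57) just outside. Downward, Ppp1r12b (-1.59) and Fgfbp3 (-1.60) lay just inside and Mrtfa (-1.58) and 4933427D14Rik (-1.57) just outside.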

How the data were processed

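Expression was measured on Affymetrix whole-genome mouse arrays, 1 for each of 4 conditions. The deposited values are linear intensities, 1 per array for 45101 probe sets. The software that made them was not given in the sources used here. A trimmed mean (2% at each end) of 500.004 on each array was taken as a sign of global scaling, and no further normalization was applied.

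After 64 controls were left out, 34945 probe sets had 1 symbol in the platform annotation, 932 had several and 9160 had none, and 34741 matched a RefSeq gene number. Signals were raised to the array median where lower, and responses were taken on the log2 scale. Thresholds were 3-fold for the difference and 2-fold for a response. With 1 array per condition precision is limited by the number of arrays and no test was run. The method was tested on simulated data, with differences well past the 3-fold limit planted only in genes with a mean signal above 500. That test does not cover dimmer genes or differences near the limit.

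The genes and the 37 pathway lists (647 genes, 591 with a probe set) and 10 marker lists (112 genes, 100 with a probe set) were chosen with earlier results of these data known. Named genes were, in each group, those of the largest difference with 4 signals at the median (10 for a larger induction, 8 for each other group, up to 5 for each opposite direction), up to 3 more with a raised signal, up to 3 per list, the genes the study names as readouts, and 2 on each side of the threshold. Other genes are marked as named after their values were seen. Promoters came from RefSeq (GRCm38.p6), 1 start per gene. Python 3.11.15, numpy 2.4.6, pandas 2.3.3 and matplotlib 3.10.9 were used. Alternatives were other scalings, floors, filters, probe set summaries and thresholds. As a check of RNA integrity, the 3' over 5' ratio lay between 1.79 and 2.19 for actin and between 0.945 and 1.35 for Gapdh.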

Additional observations from a re-analysis of the deposited data

Results flagged for a closer look

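For 7 named genes lipid A moved the signal at least 2-fold up in one genotype and at least 2-fold down in the other, on 1 array per condition. The difference between the genotypes was not tested. Up in KO and down in WT were Usp53, an actin-associated protein of cell junctions, with a difference of 2.44 on the log2 scale (from 221 to 105 in WT and from 129 to 329 in KO), Rin3, a regulator of Rab5 GTPases, with 2.62 as a lower bound (from 198 to 55.3 and from 141 to 328), and 2610316D01Rik with 2.16 as a lower bound. Down in KO and up in WT were Trmt13, a tRNA methyltransferase, with -2.38, and, as upper bounds with 2 of 4 signals below the array median in each, Rab38, a GTPase of lysosome-related organelles, with -2.67, Tmem114 with -2.59 and Clip4 with -2.56. All signals of these genes lay below 330, and of all 10 genes with opposite responses, 1 of the 3 that rose in KO and 1 of the 7 that fell in KO had all 4 signals at the array median. By the median over its probe sets Trmt13 changed sign.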

How the results depend on the processing

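Larger inductions numbered 93, smaller inductions 63, stronger lowerings 116, weaker lowerings 15 and opposite responses 10. In the same order the counts were 175, 22, 37, 59 and 11 after centring every array on its median, 132, 37, 91, 17 and 8 after quantile normalization, 481, 454, 638, 394 and 575 with no floor, 52, 10, 36, 2 and 0 with a floor at 200, 70, 34, 73, 6 and 2 with all 4 signals at the median, 73, 44, 80, 11 and 6 by the median over probe sets, 216, 136, 382, 73 and 10 over 2-fold, and 53, 21, 31, 2 and 10 over 4-fold. With a mean signal of at least 500, chosen after seeing the data, they were 53, 5, 23, 0 and 0. Of the 93 larger inductions 90 were still counted as such after centring and 90 after quantile normalization, whereas of the 116 stronger lowerings 33 and 89 were. Centring raises every difference by the same amount, so upward differences stay past 3-fold and downward ones can only drop out. The 90 and 33 after centring therefore do not tell which group is more reliable. With no floor most of the added genes lie at background. The cause of the other shifts was not tested.

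For the 90 named genes past 3-fold, 511 values came from the scalings, floors, filter and probe set summary. Of these 511 values, 509 kept their direction and 446 stayed past 3-fold. Part of both counts was fixed in advance. Where every signal of a gene reached the array median, the filter and the run with no floor return the same difference. Centring raises every difference by the same amount, so no upward difference can drop out there. The 509 and 446 are therefore no measure of reliability. Plxna2 (0.12) and Trmt13 (0.085) changed sign by the median over probe sets. With a floor at 200 many of the dim named genes no longer passed 3-fold. Among them were Fpr2, Spry1, Zbp1, Bcl2, Il15ra, Eng, Mx2, Tlr3 and Thbs1. Ttc21b, Psd3, Plxna2, Abhd15, Padi2, Vamp5, Fbxo36, Cdca7l and E230032D23Rik fell short too. So did Exog, Slc18a1, Zfp950, Tmem201, Neo1, Dnal1, Kbtbd3, Usp53, Rin3, Trmt13 and Tmem114. Mx2 also fell short after quantile normalization. No paired analysis was possible because each condition has 1 array. Signals near background limit the folds of dim genes.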

Other observations

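Probe sets without a single gene symbol are not described above. Of 932 with several symbols, 693 were examined, and 10 had a secured difference of responses past 3-fold upward and 11 downward. Of 9160 with no symbol, 4408 were examined, with 26 upward and 64 downward.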
